A study of Mus musculus with 2 samples.

Results

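Natural killer (NK) cells in mouse tumours were described from a droplet single-cell library of pooled tumour cells. The cells were chosen by their own transcript counts. A barcode was taken as an NK cell when it held at least 500 genes, under 15% mitochondrial unique molecular identifiers (UMIs, each 1 captured transcript), at most 1 UMI of the keratin genes Krt8 and Krt18 together, at least 2 UMIs of Ncr1, Klrb1c and Klre1 together, at most 1 of Cd3d, Cd3e and Cd3g, and at most 2 of C1qa, C1qb and C1qc. This rule found 132 NK cells among 9747 barcodes. They were set against 752 T cells, which held at least 2 UMIs of the 3 CD3 genes under the same limits on genes and mitochondrial, keratin and C1q UMIs, and against the 319 of these T cells with a Cd8a or Cd8b1 UMI (CD8 T cells).

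By its title, the study gave inhibitors of ACSS2, an enzyme that makes acetyl-CoA from acetate, in triple negative breast cancer. ACSS2i-treated tumours and vehicle tumours, 3 samples of each, were pooled on 1 lane after 4000 to 6000 live cells had been taken from each sample, and an expression library and a protein library were made from that pool. All samples carry the strain label NGS mouse, which the labels do not explain. Age, the tumour line and the number of animals per sample are not given in the labels, and the design text names Bmal1 status, which no label gives for this pool. The protein library holds 6 antibody tags, named U2, U3, U4, D0, D1 and D4, that mark the sample of a cell, but no source used here says which tag belongs to ACSS2i and which to vehicle. ACSS2i-treated and vehicle NK cells were therefore not compared. NK and T cells were told apart by the transcript counts of the same cells, so the differences below are descriptions and were not tested. The intervals given with ratios are exact 95% intervals that cover counting error only, and values or directions in the tagged samples are set beside the main ones.

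NK cells are innate lymphocytes that kill stressed or transformed cells without a rearranged antigen receptor. They read their targets through germline-encoded activating and inhibitory receptors, in mice the NKp46, NKR-P1, NKG2 and Ly49 families, whose activating members signal through small adaptor proteins. Killing is carried out by perforin, which opens the target membrane, and by granzymes, serine proteases that enter with it. In tumours NK cells also release chemokines and cytokines that draw in and alert dendritic cells and T cells.

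The 132 NK cells were 1.50% of the 8784 barcodes that passed the limits on genes and mitochondrial UMIs (exact Clopper-Pearson 95% interval 1.26 to 1.78), and the 752 T cells were 8.56% (7.98 to 9.17). Of 222 quality-passing barcodes with at least 2 UMIs of Ncr1, Klrb1c and Klre1, 190 passed the keratin limit, 137 of those the CD3 limit and 132 of those the C1q limit. No CD3 UMI was found in 123 NK cells, and 9 had 1. NK cells held 514840 gene UMIs in all and T cells 1522590. An NK cell held a median of 3436.5 UMIs (range 878 to 10678) and 1339 genes, against 1636.5 UMIs (747 to 16815) and 813.5 genes in a T cell, so the NK cells were the deeper of the 2 classes. The ratio of the median UMIs lay between 1.77 and 2.39 in each of the 6 tags. A single tag was assigned to 121 NK cells, 11 (8.33%) had more than 1 and none had no tag, which allows a share of up to 2.27%. A barcode with more than 1 tag can hold more than 1 cell, and such barcodes were kept here and left out in an alternative. At least 2 UMIs of Ncr1, Klrb1c and Klre1 were also found in 53 of the 752 T cells.

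Levels are given as CPM, the UMIs of a gene per 1000000 gene UMIs of a class. Values by sample are given for U2, U4, D0 and D1, the 4 tags with at least 10 NK cells and 10 T cells, which hold 33, 10, 28 and 41 NK cells and 200, 57, 65 and 132 T cells. U3 and D4 held only 4 and 5 NK cells.

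The genes of the rule were high or low by construction and are given as a description. Ncr1, which encodes the activating receptor NKp46, had 418 CPM in NK cells, against 9.19 CPM in T cells. Klrb1c, which encodes NK1.1, had 270.0 CPM in NK cells, against 26.3 CPM in T cells, and Klre1, which encodes a lectin-like NK receptor, had 672 CPM in NK cells, against 108 CPM in T cells. Klre1 was seen in 88.6% of NK cells, Ncr1 in 75.8% and Klrb1c in 56.1%, and 45 of the 132 NK cells (34.1%) held all 3. At the threshold, the 18 NK cells with exactly 2 UMIs of these genes had 1339 CPM of Klrd1, 1684 CPM of Tyrobp and 10063 CPM of Gzmc. The 27 barcodes just outside, with 1 UMI and otherwise alike, had 824 CPM of Klrd1, 1848 CPM of Tyrobp and 2659 CPM of Gzmc.

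The label was checked against 12 NK markers, of which 9 are not in the rule. All 9 were past 2-fold higher in NK cells than in T cells, among them Eomes, Klrd1, Klrk1 and the adaptor gene Tyrobp. The values of Gzmc and Gzmd among them were already known when the markers were named. Of 12 T cell markers, 5 (Cd3e, Cd8a, Cd8b1, Cd4 and Themis) had no UMI in NK cells, and 8 of the 9 outside the rule were past 2-fold lower. The marker genes of type 3 innate lymphoid cells were at 0 in NK cells except Kit. Of 7 type 2 markers, 4 were detected in NK cells (Gata3, Il1rl1, Klrg1 and Areg), while Il5, Il13 and Hlf were at 0. These 7 summed to 97.1 CPM in NK cells (65.7 to 125 over the 4 tags), against 538 CPM in T cells (217 to 1442). Of 7 B cell markers, Ighm and Ebf1 were detected in NK cells, while Cd79a, Cd79b, Ms4a1 and Pax5 were at 0. The 7 summed to 159 CPM in NK cells (137 to 207 over the 4 tags), against 147 CPM in T cells (71.4 to 220.5).

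Fibroblast and tumour transcripts were fewer in the pooled NK cells than in the pooled T cells, but fibroblast and macrophage transcripts overlapped by tag. The 6 fibroblast markers summed to 99.1 CPM in NK cells (68.6 to 219 over the 4 tags, Lum at 0), against 1479 CPM in T cells (136 to 3194). The 8 tumour markers, which include the keratin genes of the rule, summed to 107 CPM in NK cells (93.9 to 188, Krt7 at 0) and to 674 CPM in T cells (333 to 1229, Krt7 at 0). The 12 macrophage markers summed to 60.2 CPM in NK cells (0 to 148 over the 4 tags, with C1qc, Adgre1, Mrc1 and Ms4a7 at 0), against 221 CPM in T cells (31.5 to 73.9, Adgre1 at 0). The 5 endothelial markers summed to 64.1 CPM in NK cells and 35.5 CPM in T cells, and the 8 mast cell and basophil markers to 56.3 CPM in NK cells and 13.1 CPM in T cells, with Mcpt8 and Fcer1a at 0 in both. The pooled T cells also hold the cells of U3 and D4 and those with more than 1 tag, which the ranges over 4 tags leave out. The part of these transcripts in the genes that were lower in NK cells was not tested. When barcodes with more than 1 UMI of 5 fibroblast genes were left out, 125 NK cells remained. The counts below were then 356 higher and 964 lower of 7095 genes compared. This alternative was chosen after collagen genes were seen among the lowest genes.

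Across all genes, 7472 outside the rule had at least 20 UMIs in both classes together. Past 2-fold, 361 were higher (4.83%) and 1141 lower (15.3%) in NK cells than in T cells. The limit of 20 UMIs was on the sum of both classes, so a gene could pass through the class where it was high alone. T cells held 1522590 gene UMIs and NK cells 514840, so T cell genes reached the limit at a lower CPM. The higher and lower counts are therefore not on an even footing, and the part of the limit in their difference was not tested. The same direction in each of the 4 tags was found for 193 of the higher genes (2.58% of the genes compared) and 575 of the lower ones (7.70%). The median log2 ratio over all genes compared was -0.14. The 5 largest ratios of NK to T cells were those of the granzyme genes Gzme, Gzmd, Gzmg, Gzmf and Gzma.

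**Figure D1:**
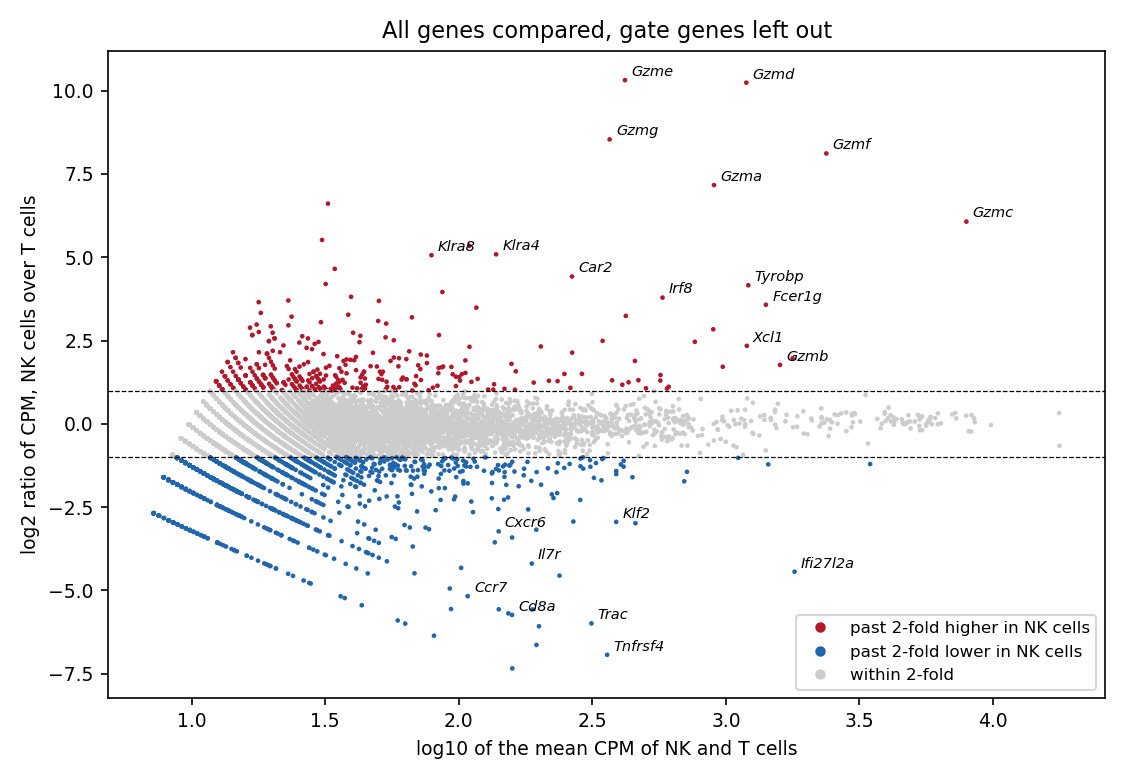
Each point is 1 of 7472 genes compared, with the log10 of its mean CPM over NK and T cells on the x axis and the log2 ratio of NK over T cell CPM on the y axis, and dashed lines at 2-fold. The 361 genes higher in NK cells (red) reach log2 ratios above 10 at Gzmd and Gzme, with Gzmc the highest of the labelled genes by level, and the 1141 lower genes (blue) include Tnfrsf4, Trac, Ccr7 and Ifi27l2a.

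Granzyme transcripts set the NK cells apart. Gzmc was the most abundant, with 15260.5 CPM in NK cells of U2, 4692 of U4, 15489 of D0 and 18035 of D1. T cells had 268 CPM in U2, 202 in U4, 1087 in D0 and 275 in D1. Every tagged NK sample lay above every tagged T cell sample, and U4 was the lowest of the NK samples. The pooled level was 15667 CPM in NK cells, against 233 CPM in T cells, a ratio of 67.2 (95% interval 60.4 to 74.9). Without D0 it was 101.

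Gzmc belongs to a cluster of granzyme genes on mouse chromosome 14 with Gzmb, Gzmd, Gzme, Gzmf and Gzmg, while Gzma and Gzmk lie on chromosome 13. In the GENCODE M21 annotation (GRCm38) Gzmc lies at chr14:56231441-56234656 and Gzmd at chr14:56129556-56132608, both on the minus strand. The 200 bases before the RefSeq start site (GRCm38.p6, minus strand) are shown for 4 of these genes because the genes next to each other differed so much in level. Capitals mark the cyclic AMP response element TGACGTCA and the RUNX core ACCACA, whose other strand reads TGTGGT.
Gzmc, chr14:56234658-56234857: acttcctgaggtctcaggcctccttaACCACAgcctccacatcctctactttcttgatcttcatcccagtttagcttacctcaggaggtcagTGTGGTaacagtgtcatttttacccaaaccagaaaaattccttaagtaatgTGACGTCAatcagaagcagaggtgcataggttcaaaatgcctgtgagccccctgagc
Gzmd, chr14:56132594-56132793: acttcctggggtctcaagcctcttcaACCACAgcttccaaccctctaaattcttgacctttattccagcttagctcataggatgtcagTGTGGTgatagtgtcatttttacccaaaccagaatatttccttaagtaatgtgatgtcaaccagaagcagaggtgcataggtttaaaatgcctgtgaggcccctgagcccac
Gzmf, chr14:56211408-56211607: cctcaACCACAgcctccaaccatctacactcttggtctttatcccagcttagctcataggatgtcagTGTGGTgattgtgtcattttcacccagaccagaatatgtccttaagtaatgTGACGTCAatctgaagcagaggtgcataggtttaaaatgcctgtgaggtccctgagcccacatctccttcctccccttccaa
Gzmb, chr14:56262335-56262534: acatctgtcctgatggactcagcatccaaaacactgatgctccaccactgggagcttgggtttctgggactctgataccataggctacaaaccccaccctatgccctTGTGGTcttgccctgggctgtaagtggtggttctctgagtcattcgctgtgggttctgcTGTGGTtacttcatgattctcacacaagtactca

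The search covered both strands, and none of these matches overlapped another. The response element was found in the windows of Gzmc (first base at -57), Gzmf (-82) and Gzmg (-77) and not in those of Gzmd, Gzme, Gzmb and Gzma, and 1.47% of 32851 RefSeq promoter windows of the same length hold it. The RUNX core was found 2 times in the windows of Gzmc, Gzmd, Gzme, Gzmf, Gzmg and Gzmb and 1 time in that of Gzma, against 11.2% of all windows with at least 1 match. The T-box core AGGTGT was found in the Gzma window alone of these 7 genes (9.32% of all windows), and the TATA box TATAAA in none (9.96%). A match is a run of letters and not a bound site. The windows of Gzmd and Gzme were 94.03% identical, those of Gzmf and Gzmg 86.3%, and those of Gzmc and Gzmd 85.3%, whereas Gzmc shared 50.7% with Gzmb. The 3 prime ends of these transcripts, which the library reads, were compared with granzyme, Mcpt, Ctsg, Klra, Klrb1, Klrc, Klre and Klri transcripts only. Among all 90-base windows of the last 500 transcript bases, 1.70% were shared between Gzmd and Gzme. None of the other granzymes searched shared one with these genes.

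Gzmd had 1549.5 CPM in NK cells of U2, 0 of U4, 4046 of D0 and 2479 of D1 and no UMI in T cells of any tag. The 10 NK cells of U4 held no UMI of Gzmd, Gzme, Gzmf or Gzmg, whereas the other 3 tagged NK samples held all 4 genes. With 0 of 10 cells, a share of up to 30% is allowed, which covers the shares of all NK cells with Gzmd (28.0%) and Gzmf (16.7%). Pooled, Gzmd had 2383 CPM in NK cells and 0 UMIs in T cells, at least 1209.6-fold higher against a floor of 3 T cell UMIs.

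Gzme, the close copy of Gzmd, had 837 CPM in NK cells and 1 UMI in all T cells, a ratio of 1275 (95% interval 228 to 50461). Gzmf had 4213 CPM in NK cells of U2, 0 of U4, 5989 of D0 and 5532 of D1. T cells held 26 UMIs of Gzmf in all, and the ratio was 277 (95% interval 189 to 425). Gzmg had 732 CPM in NK cells, against 1.97 CPM in T cells, from 3 T cell UMIs, a ratio of 372 (95% interval 126 to 1810.2). Without U2 the ratio of Gzmf was 606. Without D4 that of Gzme was at least 424, a bound at the floor of 3 T cell UMIs. These 4 granzymes are found in mice and have no direct human counterpart.

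Gzma, a tryptase that resting NK cells of mice already express, had 1236 CPM in NK cells of U2, 1845 of U4, 2234 of D0 and 1651 of D1. T cells had 14.8 CPM in U2, 15.5 in U4, 15.7 in D0 and 11.6 in D1. The lowest NK sample lay far above the highest T cell sample, and U4 did not stand apart for this gene. The ratio of the pooled levels was 144 (95% interval 91.5 to 239.7).

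Gzmb, the aspartate-cleaving granzyme that cytotoxic T cells also use, had the smallest ratio of the granzymes that were higher. It had 2472 CPM in NK cells of U2, 719 of U4, 3426 of D0 and 1840.5 of D1. T cells had 921 CPM in U2, 675 in U4, 1519.8 in D0 and 1233 in D1. The samples of the 2 classes overlapped, since the U4 NK cells lay below the T cells of U2, D0 and D1. The pooled level was 2465 CPM in NK cells, against 724 CPM in T cells, 3.41-fold higher, but with the 4 tags weighted equally the log2 ratio was 0.96 and no longer past 2-fold.

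Gzmk, a tryptase of memory-type T cells, had no UMI in NK cells and 36 UMIs (23.6 CPM) in T cells, at least 4.06-fold lower in NK cells against the same floor. With each cell thinned to 1000 UMIs its bound was a log2 ratio of -0.62 and did not reach 2-fold. Gzmm and Gzmn, with 3 and 1 UMIs in NK cells, had too few to compare.

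Of the 19 granzyme and cytotoxic granule genes compared, 11 were past 2-fold higher in NK cells, 1 was lower (Gzmk) and 7 were within 2-fold. Their median log2 ratio was 1.77, and of all genes compared 4.83% were higher and 15.3% lower. Prf1, which encodes perforin, had 763 CPM in NK cells, against 80.8 CPM in T cells, a ratio of 9.45 (95% interval 7.70 to 11.7). Every tagged NK sample was above every tagged T cell sample, with U4 again lowest at 219 CPM. Serpinb9, which encodes an inhibitor of granzyme B, had 587 CPM in NK cells, against 104 CPM in T cells, and the related serpin gene Serpinb6b had 433 CPM in NK cells, against 98.5 CPM in T cells. Ctsw, which encodes the lymphocyte protease cathepsin W, had 679.8 CPM in NK cells, against 324 CPM in T cells, past 2-fold higher but not in 5 alternatives (log2 ratio 0.65 to 0.99). Srgn, the proteoglycan core on which granules are packed, and Nkg7, a granule membrane protein, were within 2-fold. Srgn had 1847 CPM in NK cells, against 1527 CPM in T cells, and Nkg7 had 1534 CPM in NK cells, against 991 CPM in T cells. Without U2 the log2 ratio of Nkg7 was 1.12 and past 2-fold higher.

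**Figure D2:**
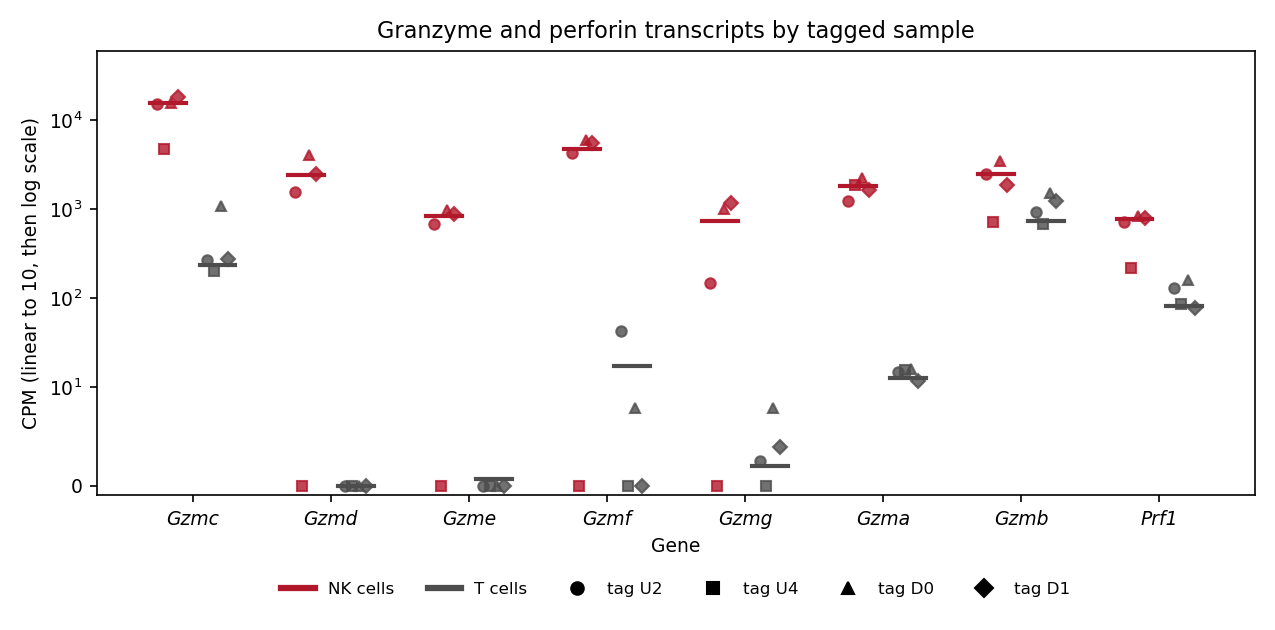
CPM of 7 granzyme genes and Prf1 on an axis that is linear below 10 and logarithmic above, in NK cells (red) and T cells (grey), with 1 symbol for each of the 4 tagged samples and a bar for the pooled level. The NK cells of tag U4 (squares) sit at 0 for Gzmd, Gzme, Gzmf and Gzmg and below the other NK samples for Gzmc and Gzmb, while Gzma lies between 1236 and 2234 CPM in the 4 NK samples, far above T cells.

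The granzymes were spread unevenly among the NK cells. Granzyme UMIs made up a median of 1.62% of an NK cell's UMIs, with a highest value of 11.9%, and 4 NK cells held none. By tag the median was 1.30% in U2, 0.267% in U4, 1.93% in D0 and 1.998% in D1. Gzmc was seen in 101 of 132 NK cells (76.5%, 95% interval 68.4 to 83.5). A Gzmc UMI was also held by 6.25% of T cells and by 1.32% of C1q-positive barcodes, which had a median of 4122 UMIs. C1q-positive barcodes held at least 3 C1q UMIs, at most 1 keratin UMI, at most 1 CD3 UMI and none of Ncr1, Klrb1c and Klre1. Those limits can also leave out barcodes with free RNA of NK or T cells, so the share is not a full measure of free RNA. After thinning every cell to 1000 UMIs, which left out 2 NK cells and 47 T cells, the shares were 71.5% of NK cells and 4.11% of T cells.

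Gzmd was seen in 37 NK cells (28.0%, 20.6 to 36.5) and in none of 752 T cells, which allows a share of up to 0.399%. Gzmf was seen in 22 NK cells (16.7%), and 5 of them held 68.6% of its 2438 UMIs. Gzmg was seen in 12 NK cells, 5 of which held 92.0% of its UMIs. The highest single NK cell had 503 Gzmf UMIs. Gzmc was less concentrated, with 16.9% of its UMIs in the 5 highest NK cells. The pooled levels of Gzmd, Gzme, Gzmf and Gzmg thus rest on few cells.

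In 16 NK cells more than 1% of the UMIs came from Gzmd, Gzme, Gzmf and Gzmg. All 16 also held Gzmc at 1.46% or more of their UMIs, and 2 of them held a Gzma UMI. Of the 44 NK cells with a UMI of any of these 4 genes, 97.7% held Gzmc, against 65.9% of the other 88. The first group was deeper, with a median of 4828.5 UMIs against 3031. Gzma was seen in 22.7% of the 44 cells and in 56.8% of the 88. In U2, D0 and D1 the shares with Gzma were 10%, 40% and 11.8% of the cells with Gzmd to Gzmg, and 56.5%, 72.2% and 50% of those without.

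Gzma and Gzmc also parted. Gzma was seen in 36.6% of the 101 NK cells with a Gzmc UMI (median depth 3827 UMIs), against 74.2% of the 31 without (1750 UMIs). The share with Gzma was the lower one in the cells with Gzmc in each of the 4 tags, although the groups without Gzmc held only 2 to 11 cells. Thinned to 1000 UMIs, the shares were 28.0% and 70.3%. These shares describe cells of 1 pool, and cells are not replicates.

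**Figure D3:**
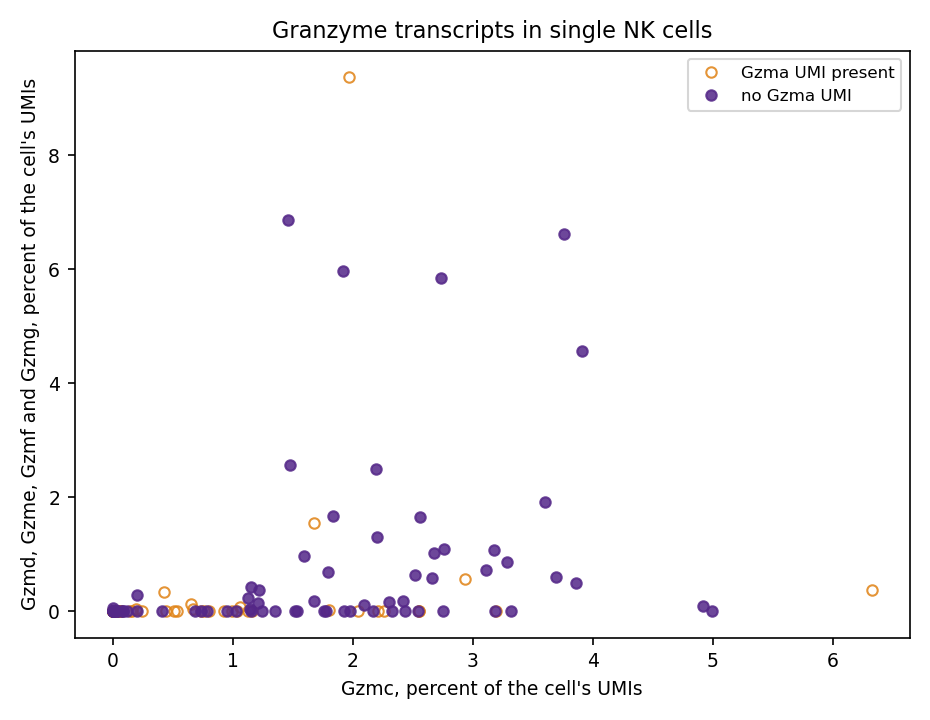
Each point is 1 of the 132 NK cells, with Gzmc as percent of the cell's UMIs on the x axis and Gzmd, Gzme, Gzmf and Gzmg together on the y axis, open where the cell held a Gzma UMI. Cells high on the y axis all hold Gzmc at 1.46% or more, 14 of the 16 above 1% lack Gzma, and many cells with Gzma lie near 0 on both axes.

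In a list of 17 mostly activating NK receptor and adaptor genes outside the rule, which also holds the inhibitory Klrb1b, 11 with Klrb1b were past 2-fold higher in NK cells than in T cells, none was lower and 6 were within 2-fold, with a median log2 ratio of 1.71. In 8 of the 11 all 4 tags had that direction. The shares of all genes compared were 4.83% higher, and 2.58% higher with that direction in all 4 tags. The adaptor Fcer1g, which carries the signal of NKp46 and of the Fc receptor, had 2498 CPM in NK cells of U2, 2596 of U4, 2544 of D0 and 2784 of D1. T cells had 182 CPM in U2, 326 in U4, 354 in D0 and 221 in D1. The NK samples were close to each other and all above the T cell samples, with a pooled ratio of 11.9 (95% interval 10.6 to 13.5).

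Tyrobp, which encodes the adaptor DAP12 of the activating Ly49 receptors, had 2115 CPM in NK cells of U2, 1533 of U4, 2628 of D0 and 2357 of D1. T cells had 133 CPM in U2, 132 in U4, 213 in D0 and 93.0 in D1. No T cell sample reached the NK samples, and the pooled ratio was 17.9 (95% interval 15.3 to 20.9). Both adaptors were also abundant in the C1q-positive barcodes, with 2892 CPM of Fcer1g and 2239 CPM of Tyrobp. Hcst, which encodes DAP10, the adaptor of NKG2D, differed from these and had 402 CPM in NK cells, against 609 CPM in T cells. It was lower in NK cells in all 4 tags but within 2-fold. Cd247, the CD3 zeta chain that pairs with NKp46 as well as with the T cell receptor, had 19.4 CPM in NK cells, against 88.0 CPM in T cells.

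Klrd1, which encodes CD94, the partner chain of NKG2 receptors, had 1462 CPM in NK cells of U2, 1251 of U4, 1361 of D0 and 1577 of D1. T cells had 669.8 CPM in U2, 473 in U4, 717 in D0 and 392 in D1. All NK samples were above all T cell samples, with a pooled ratio of 3.28 (95% interval 2.95 to 3.64). Klrk1, which encodes NKG2D, had 719 CPM in NK cells, against 194 CPM in T cells. Klrc1, which encodes the inhibitory NKG2A, had 144 CPM in NK cells, against 58.5 CPM in T cells, but with equally weighted tags its log2 ratio was 0.86, without U3 it was 0.97 and against CD8 T cells 0.56, all short of 2-fold, and without U2 the ratio was 4.48. Of its 3 prime windows 32.6% were shared with Klrc2, so the levels of these genes may be mixed.

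The NKR-P1 genes next to Klrb1c showed large ratios. Klrb1b, which encodes an inhibitory member, had 279 CPM in NK cells of U2, 219 of U4, 197 of D0 and 179 of D1. T cells held 8 UMIs in all (5.25 CPM), and the ratio was 40.7 (95% interval 19.9 to 96.5). Klrb1f, an activating member, had 163 CPM in NK cells, against 10.5 CPM in T cells, a ratio of 15.5 (95% interval 9.03 to 28.4). Sh2d1b1, which encodes the SLAM adaptor EAT-2, had 42.7 CPM in NK cells, against 3.28 CPM in T cells, from 22 and 5 UMIs. Cd244 and Slamf7, receptors of the SLAM family, had 95.2 and 134 CPM in NK cells, against 24.3 and 61.1 CPM in T cells. Without U2 the ratio of Cd244 was 5.98, and Slamf7 was short of 2-fold in 8 alternatives (log2 ratio 0.33 to 0.996).

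The Ly49 genes bind class I molecules, most of them as inhibitory receptors, and each NK cell is known to express its own subset of them. Of 12 Ly49 and other inhibitory receptor genes compared, 8 were past 2-fold higher in NK cells than in T cells, 1 was lower and 3 were within 2-fold. Their median log2 ratio was 1.55, and of all genes compared 4.83% were higher and 15.3% lower. Klra4, the activating Ly49D, had 279 CPM in NK cells of U2, 344 of U4, 263 of D0 and 185 of D1. T cells held 12 UMIs of it (7.88 CPM), and the ratio was 34.0 (95% interval 18.9 to 67.4). Klra4 also had 154 CPM in 5294 keratin-positive barcodes, where Klra1, Klra3, Klra7, Klra8 and Klra9 had at most 0.253 CPM, and 3.46 CPM in C1q-positive barcodes. Keratin-positive barcodes held at least 5 keratin UMIs and no UMI of the CD3 genes or of Ncr1, Klrb1c and Klre1. Klra8, the activating Ly49H, had 153 CPM in NK cells, against 4.597 CPM in T cells, a ratio of 33.4 (95% interval 15.5 to 85.7), from 7 T cell UMIs, and of 226 without D0.

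Klra7, the inhibitory Ly49G, had 244 CPM in NK cells of U2, 438 of U4, 666 of D0 and 216 of D1. T cells had 22.2 CPM in U2, 178 in U4, 213 in D0 and 109 in D1. All NK samples were above all T cell samples, but the D1 NK cells only just above the D0 T cells. The pooled ratio was 4.996 (95% interval 3.89 to 6.44). Klra9 had 120.4 CPM in NK cells, against 13.1 CPM in T cells, and Klra3 had 117 CPM in NK cells, against 27.6 CPM in T cells. Of their 3 prime windows, 10.2% (Klra7), 14.1% (Klra9) and 8.52% (Klra3) were shared with other Klra genes, and none of those of Klra1, Klra4 and Klra8. Klra1, the inhibitory Ly49A, was within 2-fold, with 85.5 CPM in NK cells, against 64.4 CPM in T cells. Against CD8 T cells it was past 2-fold higher (log2 ratio 1.94). Klrg1, an inhibitory receptor of mature NK cells and of memory and regulatory T cells, was the lower gene, with 13.6 CPM in NK cells, against 75.5 CPM in T cells, a ratio that was 0.343 without D1 and 0.105 without D0.

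Counting Klra1, Klra3, Klra4, Klra7, Klra8 and Klra9, at least 1 Ly49 gene was seen in 82 NK cells (62.1%, 53.3 to 70.4) and in 12.2% of T cells. In NK cells 50 held none of the 6, 26 held 1, 27 held 2, 17 held 3, 10 held 4 and 2 held 5. Ly49 transcripts went with Gzma. They were seen in 86.7% of the 60 NK cells with a Gzma UMI (median depth 3024 UMIs), against 41.7% of the 72 without (3713 UMIs). The share was higher in the cells with Gzma in U2 (85.7% against 31.6%), U4 (75% against 50%), D0 (82.4% against 45.5%) and D1 (92.9% against 40.7%). Thinned to 1000 UMIs, the shares were 73.1% and 33.3%.

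**Figure D4:**
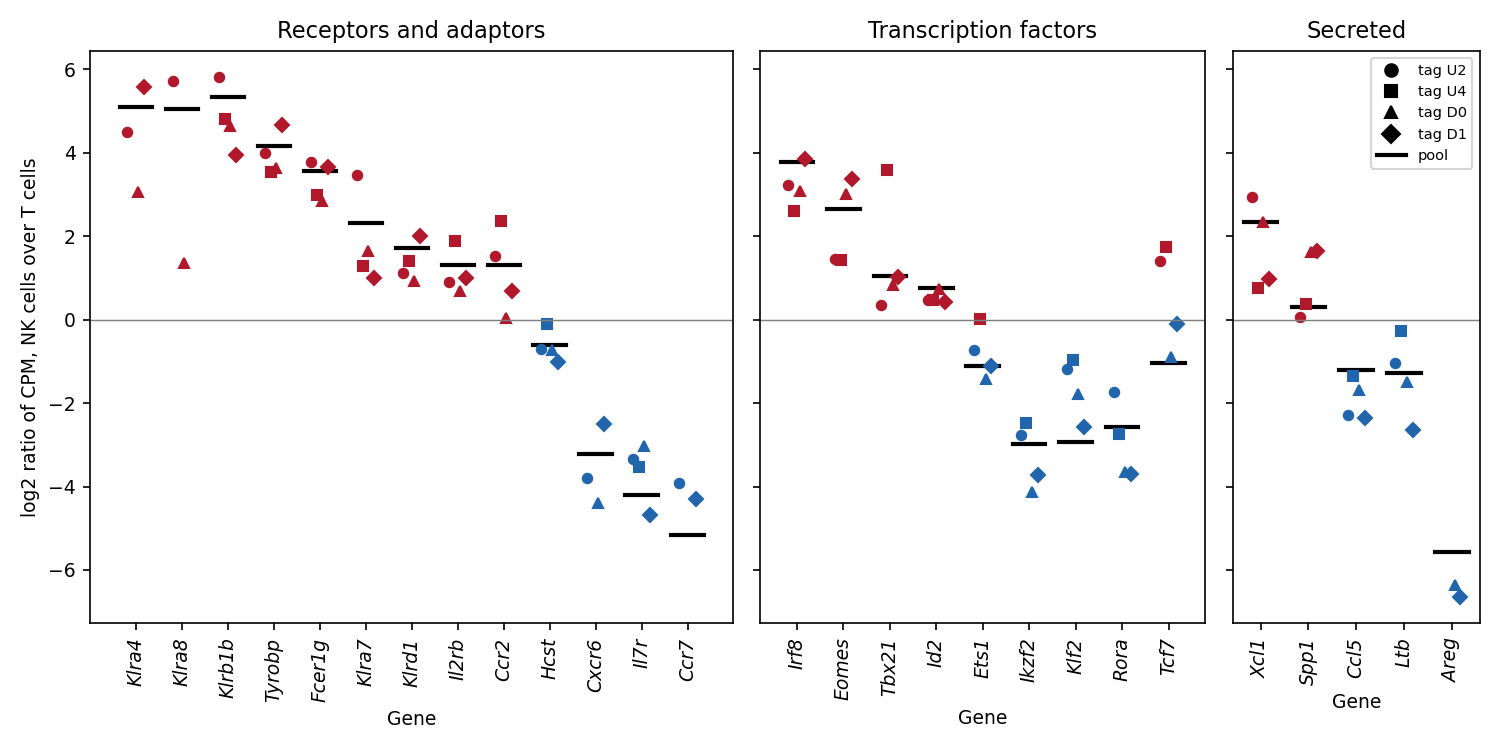
Log2 ratio of NK over T cell CPM for receptors and adaptors, transcription factors and secreted factors, with 1 symbol for each of the 4 tagged samples where both classes had a UMI and a bar for the pool, red above 0 and blue below. Fcer1g, Tyrobp, Klrd1, Irf8, Eomes and Xcl1 lie above 0 and Ikzf2, Rora, Il7r, Cxcr6 and Areg below it in every sample drawn.

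Of 22 transcription factors of the lymphoid lineages compared, 4 were past 2-fold higher in NK cells (Irf8, Eomes, Tbx21 and Runx3), 11 were lower and 7 within. Their median log2 ratio was -0.91, and of all genes compared 4.83% were higher and 15.3% lower. Irf8, an interferon regulatory factor needed for NK cell maturation, had 949 CPM in NK cells of U2, 375 of U4, 1202 of D0 and 1171 of D1. T cells had 101 CPM in U2, 62.0 in U4, 142 in D0 and 81.4 in D1. The groups did not overlap, and the pooled ratio was 13.8 (95% interval 11.3 to 17.0). Irf8 was seen in 86.4% of NK cells and in 9.71% of T cells.

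Eomes and Tbx21 encode the T-box factors that drive the NK programme. Eomes had 87.1 CPM in NK cells of U2, 125 of U4, 253 of D0 and 121 of D1. T cells had 32.0 CPM in U2, 46.5 in U4, 31.5 in D0 and 11.6 in D1, with a pooled ratio of 6.34 (95% interval 4.19 to 9.76). Tbx21, which encodes T-bet, had 48.6 CPM in NK cells, against 23.6 CPM in T cells, with an interval of the ratio from 1.18 to 3.52. It was short of 2-fold in 7 alternatives (log2 ratio 0.64 to 0.96), and without U2 the ratio was 3.39. Runx3, which binds the RUNX core shown above, had 567 CPM in NK cells, against 252 CPM in T cells, and was within 2-fold against CD8 T cells (log2 ratio 0.84). Id2, which blocks E proteins in innate lymphoid cells, had 835 CPM in NK cells, against 497 CPM in T cells, higher in NK cells in all 4 tags but within 2-fold.

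Ikzf2, which encodes Helios, was lower in NK cells, with 95.8 CPM in NK cells of U2, 156 of U4, 65.7 of D0 and 137 of D1. T cells had 648 CPM in U2, 868 in U4, 1149.7 in D0 and 1810.2 in D1. The groups did not overlap, and the ratio was 0.126 (95% interval 0.0941 to 0.166). Klf2, a factor of quiescence and of exit from tissue, had 89.3 CPM in NK cells, against 688 CPM in T cells, a ratio of 0.130 (95% interval 0.0945 to 0.175). Its T cell level was highest in U3, at 1948 CPM, with 717 of the 1047 Klf2 UMIs of all T cells. Without U3, Klf2 had 87.8 CPM in NK cells, against 286 CPM in T cells, a ratio of 0.307. Rora, a factor of type 2 and tissue-resident lymphocytes, had 52.4 CPM in NK cells, against 311 CPM in T cells. Ets1 had 262 CPM in NK cells, against 566 CPM in T cells, but its call was lost with a minimum of 1000 genes (log2 ratio -0.64), with equally weighted tags (-0.79) and against CD8 T cells (-0.93). Tcf7 and Lef1, factors of naive and memory T cells, had 58.3 and 23.3 CPM in NK cells, against 119 and 141 CPM in T cells. Tcf7 was higher in NK cells in U2 and U4 and lower in D0 and D1, and its log2 ratio was 0.09 without U3, 0.09 with a minimum of 1000 genes and 0.60 with equally weighted tags. The log2 ratio of Lef1 was -1.34 without U3, -0.98 with equally weighted tags and -0.87 with a minimum of 1000 genes.

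Whether the cells were nearer to conventional NK cells or to type 1 innate lymphoid cells was looked at with a list for each. Of 11 conventional NK markers compared, 5 were past 2-fold higher (Eomes, Itga2, Prf1, Gzma and Irf8) and 4 lower (Cx3cr1, Klrg1, Zeb2 and Klf2) in NK cells than in T cells, with a median log2 ratio of 0.11. Of 17 type 1 innate lymphoid and residency genes, 4 were higher (Itga1, Tmem176a, Tmem176b and Kit) and 6 lower, among them Cxcr6, Il7r and Itgae, with a median of 0.12. Over all genes compared the median was -0.14, with 4.83% higher and 15.3% lower. T cells share many of these genes, so the lists describe NK cells relative to T cells only.

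Itga1, the collagen receptor chain CD49a of tissue-resident cells, had 144 CPM in NK cells, against 44.0 CPM in T cells, a ratio of 3.27 (95% interval 2.32 to 4.62). It was seen in 42.6% of NK cells with Gzmc and in 6.45% of those without, and thinned in 15.1% and 2.70%. Depth differed between these cells, with medians of 3827 and 1750 UMIs. Itga2, the CD49b chain of conventional NK cells, had only 12 UMIs in NK cells (23.3 CPM), against 5.91 CPM in T cells. Cxcr6, a retention receptor, had 27.2 CPM in NK cells, against 255 CPM in T cells, and Il7r, the interleukin 7 receptor, had 19.4 CPM in NK cells, against 356 CPM in T cells, a ratio of 0.0546 (95% interval 0.0260 to 0.101). Both were lower in NK cells in all 4 tags. Tmem176b had 87.4 CPM in NK cells, against 23.6 CPM in T cells, beside 164 CPM in keratin-positive barcodes. Ly6c2, Cd69 and Rgs2, among the most abundant members of these lists, were within 2-fold, with 476, 425 and 371 CPM in NK cells and 441, 515 and 307 CPM in T cells.

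**Figure D5:**
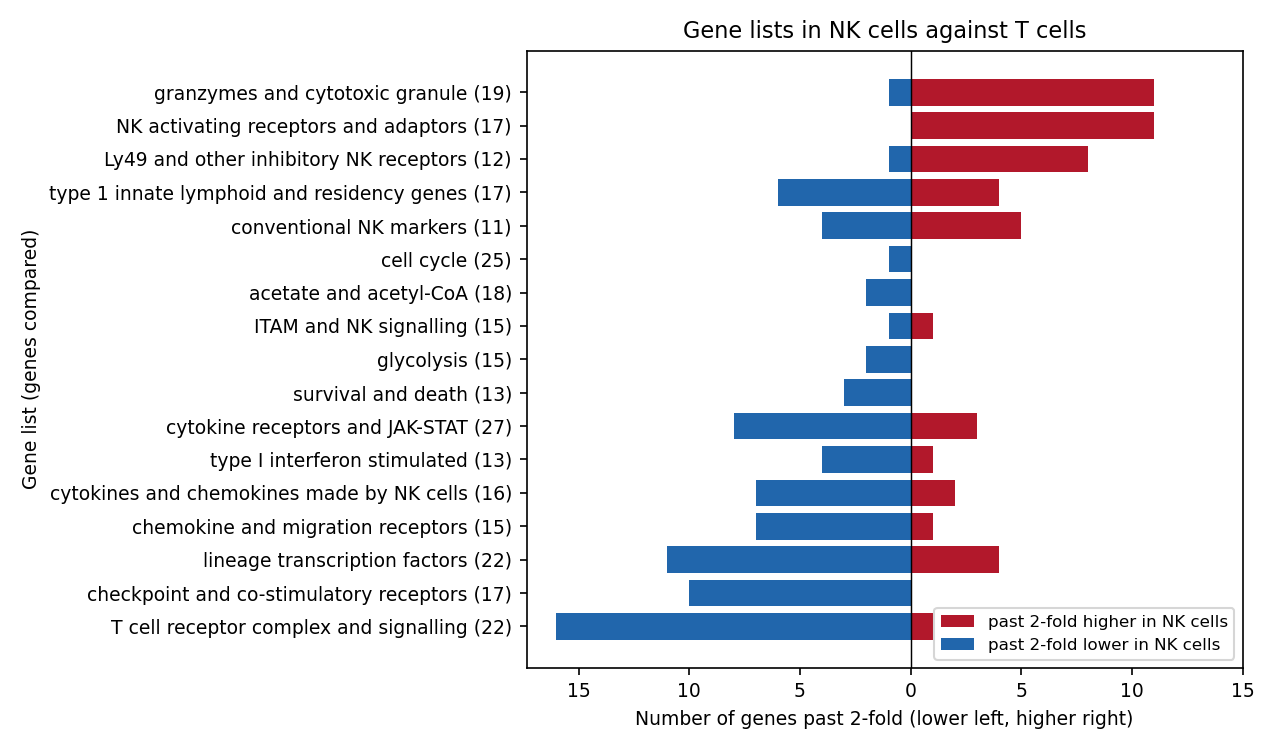
Number of genes of each list past 2-fold in NK cells against T cells, higher to the right in red and lower to the left in blue, with the number of genes compared in parentheses and lists ordered by their median log2 ratio. Granzyme, activating receptor and Ly49 lists extend to the right, with 11, 11 and 8 genes, and the T cell receptor list extends to the left with 16.

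The secreted factors did not move together. Of 16 cytokine and chemokine genes compared, 2 were past 2-fold higher in NK cells (Xcl1 and Tgfb1), 7 were lower and 7 within. Their median log2 ratio was -0.71, and of all genes compared 4.83% were higher and 15.3% lower. Xcl1, the chemokine that attracts cross-presenting dendritic cells, had 2324 CPM in NK cells of U2, 1189 of U4, 1962 of D0 and 1772 of D1. T cells had 305 CPM in U2, 706 in U4, 386 in D0 and 899 in D1. Again no samples overlapped, and the ratio was 5.07 (95% interval 4.58 to 5.61). A UMI of Xcl1 was seen in 84.1% of NK cells and in 14.9% of T cells. Tgfb1 had 355 CPM in NK cells, against 168 CPM in T cells, short of 2-fold in 3 alternatives (log2 ratio 0.83 to 0.99).

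Ccl5, a chemokine shared by NK and effector T cells, had 818 CPM in NK cells of U2, 782 of U4, 723 of D0 and 285 of D1. T cells had 3996 CPM in U2, 1992 in U4, 2339 in D0 and 1454 in D1. NK cells were lower in all 4 tags, and the pooled ratio was 0.430 (95% interval 0.388 to 0.475). Only 28 NK cells held Ccl5, 5 of them with 61.2% of its UMIs. Its log2 ratio was -0.56 without U2, -0.82 without D1 and -0.08 with cells thinned to 1000 UMIs, each within 2-fold. The 4 NK cells of U3 had 11361 CPM of Ccl5, above those of every other tag, but 1 of them held 112 of their 154 Ccl5 UMIs. Without U3 the ratio was 0.233.

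Ccl3 and Ccl4, inflammatory chemokines, were lower in NK cells. Ccl3 had 15.5 CPM in NK cells, against 135 CPM in T cells, and Ccl4 had 83.5 CPM in NK cells, against 363 CPM in T cells. Without U2 the ratio was 0.204 for Ccl3 and 0.637 for Ccl4, which was then within 2-fold, as it was with thinned cells (log2 ratio -0.77). For Ccl4 the ratio was 0.126 without D0 and 0.352 without D1. Ifng, the main NK cytokine, was within 2-fold, with 120.4 CPM in NK cells, against 205 CPM in T cells and an interval of the ratio from 0.440 to 0.774. It was seen in 18.9% of NK cells and in 14.8% of T cells. Ifng was past 2-fold lower in 4 alternatives (log2 ratio down to -1.46), whereas without U2 its log2 ratio was 0.14. A single NK cell of D4 held 20 of its 62 NK cell UMIs, and without D4 the log2 ratio was -1.32. Ltb, a lymphotoxin chain, had 181 CPM in NK cells, against 441 CPM in T cells, and was within 2-fold against CD8 T cells (log2 ratio -0.87) and without D1 (-0.81). Areg, a growth factor made by type 2 and regulatory lymphocytes, had 7.77 CPM in NK cells, against 369.8 CPM in T cells, a ratio of 0.0210 (95% interval 0.00571 to 0.0541). Keratin-positive barcodes held 193 CPM of Areg.

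Spp1, which encodes osteopontin, had 3271 CPM in NK cells, against 2654 CPM in T cells, and was within 2-fold. It was the most abundant gene of the list in both classes, and keratin-positive barcodes held 31588 CPM. Its log2 ratio was 1.02 with equally weighted tags and 1.33 without the barcodes rich in fibroblast transcripts, both past 2-fold higher. The part of free RNA in it was not tested.

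Cytokine receptors and JAK-STAT genes showed 3 of 27 past 2-fold higher in NK cells (Il2rb, Il10ra and Il12rb2), 8 lower and 16 within. Their median log2 ratio was -0.48, and of all genes compared 4.83% were higher and 15.3% lower. Il2rb, the chain shared by the receptors of interleukin 2 and 15 on which NK cells depend, had 749 CPM in NK cells of U2, 969.6 of U4, 507 of D0 and 649 of D1. T cells had 399 CPM in U2, 264 in U4, 315 in D0 and 326 in D1. All NK samples were above all T cell samples, and the ratio was 2.48 (95% interval 2.14 to 2.86). Il12rb2 had 54.4 CPM in NK cells, against 25.6 CPM in T cells, from 28 and 39 UMIs. It was short of 2-fold in 8 alternatives (log2 ratio 0.73 to 0.9999), and without U2 the ratio was 3.19. Ifngr1 and Jak1 were within 2-fold, with 532 and 320.5 CPM in NK cells and 692 and 339 CPM in T cells.

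Of 15 chemokine and migration receptors, 1 (Ccr2) was past 2-fold higher, 7 were lower and 7 within, with a median log2 ratio of -0.86. Over all genes compared, 4.83% were higher and 15.3% lower. Ccr2, the receptor of CCL2, had 592 CPM in NK cells of U2, 719 of U4, 469 of D0 and 517 of D1. T cells had 204 CPM in U2, 139.6 in U4, 457 in D0 and 322 in D1. The groups did not overlap, by a narrow margin in D0, and without U3 the log2 ratio was 0.96 and short of 2-fold. The pooled ratio was 2.47 (95% interval 2.10 to 2.91). Ccr7, the receptor for homing to lymph nodes, had 3 UMIs in NK cells (5.83 CPM) and 210.2 CPM in T cells, a ratio of 0.0277 (95% interval 0.00569 to 0.0818) and of 0.0146 without D1. Cx3cr1, a receptor of mature circulating NK cells, had 1 UMI in NK cells, against 31 in T cells. Without D1 its ratio was at most 0.449, a bound at the floor of 3 NK cell UMIs. Itgb1, the beta 1 integrin, was within 2-fold with 631 CPM in NK cells, against 355 CPM in T cells, and past 2-fold higher with thinned cells (log2 ratio 1.05).

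None of the 17 checkpoint and co-stimulatory receptors was past 2-fold higher in NK cells and 10 were lower, with a median log2 ratio of -1.47. The shares of all genes compared were 4.83% higher and 15.3% lower. Tnfrsf4, which encodes OX40, had no UMI in NK cells and 713 CPM in T cells, at least 122-fold lower in NK cells. Icos had 62.2 CPM in NK cells, against 475 CPM in T cells, and Pdcd1, which encodes PD-1, had 34.96 CPM in NK cells, against 159 CPM in T cells. Ctla4 had 89.3 CPM in NK cells, against 378 CPM in T cells, and was within 2-fold against CD8 T cells (log2 ratio -0.92). Without U2 the ratio of Pdcd1 was 0.383. Tnfrsf9, which encodes 4-1BB, was within 2-fold with 585 CPM in NK cells, against 439 CPM in T cells, and against CD8 T cells it was past 2-fold higher (log2 ratio 1.30). Tnfrsf18, which encodes GITR, had 157 CPM in NK cells, against 484 CPM in T cells, and was within 2-fold against CD8 T cells (-0.54). Lag3 was within 2-fold with 52.4 CPM in NK cells, against 66.3 CPM in T cells. Tigit was seen with 1 UMI in NK cells and 9 in T cells, too few to compare.

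Genes of the T cell receptor complex were low by the rule or close to it. Of 22 outside the rule, 16 were past 2-fold lower in NK cells, 5 within and 1 higher, with a median log2 ratio of -2.23. The shares of all genes compared were 15.3% lower and 4.83% higher. The higher gene was Tcrg-C4 (log2 ratio 1.01), short of 2-fold in 9 alternatives at 0.70 to 0.996. Trac, the alpha chain constant region, had 9.71 CPM in NK cells, against 618 CPM in T cells, a ratio of 0.0157 (95% interval 0.00509 to 0.0368). The beta chain constant regions behaved otherwise. Trbc2 had 296 CPM in NK cells of U2, 188 of U4, 216 of D0 and 427 of D1. T cells had 1115 CPM in U2, 814 in U4, 1259.9 in D0 and 957 in D1. NK cells were lower in all 4 tags, with a ratio of 0.302 (95% interval 0.256 to 0.355). Yet 69 NK cells (52.3%) held a Trbc2 UMI, against 75% of T cells and 0.789% of C1q-positive barcodes. The C1q-positive barcodes were limited to at most 1 CD3 UMI and no UMI of Ncr1, Klrb1c and Klre1, which can lower their share. Trbc1 had 557 CPM in NK cells of U2, 626 of U4, 282 of D0 and 448 of D1. T cells had 669.8 CPM in U2, 938 in U4, 543 in D0 and 771 in D1. The samples overlapped, and the pooled ratio of 0.721 (95% interval 0.625 to 0.829) was within 2-fold.

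Cd8a and Cd8b1 had no UMI in NK cells, at least 53.3-fold and 67.5-fold lower than in T cells. Bcl11b, a factor of T cell commitment, had 3.88 CPM in NK cells, against 183 CPM in T cells, from 2 NK cell UMIs. Its ratio was 0.0341 without D1 and at most 0.0345 without U4, a bound at the floor of 3 NK cell UMIs. Cd5 and Cd6, inhibitory T cell surface receptors, had 1 UMI each in NK cells. Lck, the kinase shared by both lineages, was within 2-fold with 218 CPM in NK cells, against 276 CPM in T cells. Among 15 signalling genes downstream of immune receptors, 13 were within 2-fold, Lyn was higher and Plcg1 lower. Of all genes compared, 4.83% were higher and 15.3% lower. Lyn had 38.8 CPM in NK cells, against 11.8 CPM in T cells, short of 2-fold with equally weighted tags (log2 ratio 0.98). Plcg1, the phospholipase that T cell receptors use, had no UMI in NK cells and 36.8 CPM in T cells, at least 6.31-fold lower. Sh2d2a, Fyn and Cblb had 270.0, 77.7 and 79.6 CPM in NK cells and 217, 133 and 131 CPM in T cells, within 2-fold except for Fyn with thinned cells (log2 ratio -1.31).

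Of 13 interferon-stimulated genes, 4 were past 2-fold lower in NK cells (Ifit1, Ifit3, Oasl2 and Ifi27l2a), 1 was higher (Usp18) and 8 were within. Their median log2 ratio was -0.64, beside 15.3% lower and 4.83% higher of all genes compared. Ifi27l2a, a small interferon-induced protein, had 17.4 CPM in NK cells of U2, 125 of U4, 394 of D0 and 127 of D1. T cells had 1857 CPM in U2, 2148 in U4, 7441 in D0 and 6718 in D1. The groups did not overlap, and D0 was the highest sample in both classes. The pooled ratio was 0.0461 (95% interval 0.0366 to 0.0573). Usp18, which dampens interferon receptor signalling, had 95.2 CPM in NK cells, against 41.4 CPM in T cells, and was within 2-fold against CD8 T cells, with a minimum of 1000 genes and with equally weighted tags (log2 ratio 0.43 to 0.88). Ifit1 and Ifit3 lost their call in 3 alternatives each (log2 ratios -0.58 to -0.98). Isg15 had 169 CPM in NK cells, against 311 CPM in T cells, within 2-fold, and Bst2 had 286 CPM in NK cells, against 437 CPM in T cells. With equally weighted tags the log2 ratios of these genes were -1.29 (Isg15) and -1.20 (Bst2), past 2-fold lower, and Isg15 was past 2-fold lower in 3 other alternatives (-1.02 to -1.36).

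The target of the inhibitor was near the limit of detection. Acss2 had 4 UMIs in all NK cells (7.77 CPM, interval 2.12 to 19.9), against 20 in T cells (13.1 CPM, 8.02 to 20.3), and a difference was not detectable at this depth (ratio 0.591 (95% interval 0.147 to 1.77)). With at least 3 UMIs of the NK genes required, its log2 ratio was -1.04 and past 2-fold. Of 18 acetate and acetyl-CoA genes compared, none was past 2-fold higher, 2 were lower (Slc16a3 and Kat2b; 15.3% of all genes compared were lower) and 16 within, with a median log2 ratio of -0.09. Acly, which makes acetyl-CoA from citrate, had 64.1 CPM in NK cells, against 41.4 CPM in T cells. Crebbp and Ep300, acetyltransferases that use acetyl-CoA, had 46.6 and 71.9 CPM in NK cells and 89.3 and 67.6 CPM in T cells. Crebbp was within 2-fold, but past 2-fold lower under 5 alternatives (log2 ratio -1.01 to -1.58). Pdha1 and Pdhb, subunits of pyruvate dehydrogenase, had 52.4 and 48.6 CPM in NK cells and 64.4 and 67.0 CPM in T cells, within 2-fold. Slc16a3, the lactate exporter MCT4, had 17.5 CPM in NK cells, against 48.6 CPM in T cells. Against CD8 T cells all 13 genes of the list that could be compared were within 2-fold (log2 ratio of Slc16a3 -0.61), and Kat2b was within 2-fold with equally weighted tags (-0.82).

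Glycolysis genes were within 2-fold in 13 of 15, with a median log2 ratio of -0.31. The other 2 were lower, beside 15.3% of all genes compared. Slc2a1, the glucose transporter, had 15.5 CPM in NK cells, against 41.4 CPM in T cells, and Hk2, hexokinase 2, had 11.7 CPM in NK cells, against 37.4 CPM in T cells. Slc2a1 was within 2-fold without D1 (log2 ratio -0.85) and Hk2 with thinned cells (-0.22). The more abundant enzymes were nearer to equal, with 600.2 CPM of Ldha and 509 CPM of Gapdh in NK cells, against 675 and 701 CPM in T cells. Of 25 cell cycle genes, 24 were within 2-fold, and Cdkn1b, an inhibitor of the cycle, was lower, though not against CD8 T cells, with a minimum of 1000 genes or with thinned cells (log2 ratio -0.89 to -0.96). The 23 others without Cdkn1a summed to 3224 CPM in NK cells and 3210 CPM in T cells. By tag they ran from 2769 CPM (D1) to 4879 CPM (U4) in NK cells and from 3167 CPM (D1) to 4435 CPM (U4) in T cells. Mki67 or Top2a was seen in 26.5% of NK cells and in 19.1% of T cells, but NK cells were deeper. Of 13 survival and death genes, 10 were within 2-fold and 3 lower, beside 15.3% lower of all genes compared. Bcl2 had 339.9 CPM in NK cells, against 252 CPM in T cells, and Bcl2a1b had 73.8 CPM in NK cells, against 223 CPM in T cells. Mcl1, which NK cells need to survive, was within 2-fold at 225 CPM in NK cells, against 393 CPM in T cells.

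Outside the lists, Car2, which encodes carbonic anhydrase 2, had 531 CPM in NK cells of U2, 688 of U4, 648 of D0 and 443 of D1. T cells had 12.3 CPM in U2, 38.8 in U4, 39.4 in D0 and 19.4 in D1. NK samples were all above T cell samples, and the ratio was 21.4 (95% interval 15.1 to 31.3). Styk1, which encodes a receptor-like kinase, had 214 CPM in NK cells, against 19.0 CPM in T cells (ratio 24.8 without U2), and Gas7, a cytoskeletal adaptor, had 93.2 CPM in NK cells, against 7.22 CPM in T cells, but keratin-positive barcodes held 41.5 CPM of Gas7 too. Among the lowest genes, Cxcl2, a neutrophil chemokine, had 1 UMI in NK cells and 159.6 CPM in T cells, beside 2894 CPM in C1q-positive barcodes. Penk, which encodes proenkephalin, and Gm8369 had no UMI in NK cells and 301 and 277 CPM in T cells, at least 51.6-fold and 47.5-fold lower. Bmyc had 1.94 CPM in NK cells, against 84.7 CPM in T cells, from 1 NK cell UMI. Its ratio was 0.0452 without D1 and at most 0.0869 without D0, a bound at the floor of 3 NK cell UMIs. That of Cxcl2 was 0.0199 without D1.

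Set against the 319 CD8 T cells, which also carry cytotoxic genes, 5746 genes could be compared, 327 were past 2-fold higher (5.69%) and 550 lower (9.57%) in NK cells, with a median log2 ratio of -0.06. CD8 T cells are part of the T cells, so the 2 comparisons share cells. Gzmc had 15667 CPM in NK cells and 75.6 CPM in CD8 T cells, 207-fold higher. Gzma had 1793 CPM in NK cells and 14.8 CPM in CD8 T cells, 121-fold higher. For Gzmb the levels were 2465 CPM in NK cells and 789.9 CPM in CD8 T cells, 3.12-fold higher.

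Prf1 had 763 CPM in NK cells and 147 CPM in CD8 T cells. Nkg7 was near equal, with 1534 CPM in NK cells and 1667 CPM in CD8 T cells. Ccl5 was lower, with 866 CPM in NK cells and 3444 CPM in CD8 T cells, a ratio of 0.252. Ccr2 had 534 CPM in NK cells, against 91.9 CPM in CD8 T cells, and its ratio of 5.81 was larger than that against all T cells. In the granzyme list 10 of 19 genes were past 2-fold higher than in CD8 T cells and 1 was lower, and in the checkpoint list 1 of 16 was higher and 8 lower.

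The share of NK cells differed among the tagged samples. By tag, NK cells were 1.43% of tagged cells in U2 (interval 0.985 to 1.9996), 0.651% in U3 (0.178 to 1.66), 2.55% in U4 (1.23 to 4.64), 7.05% in D0 (4.74 to 10.0), 2.52% in D1 (1.81 to 3.40) and 2.01% in D4 (0.655 to 4.62). D0 was the highest and its interval overlapped no other. Of NK and T cells together, NK cells made up 14.2% in U2, 1.90% in U3, 14.9% in U4, 30.1% in D0, 23.7% in D1 and 14.3% in D4. By this measure D0 was again the highest, but its interval overlapped those of U4, D1 and D4. It lay above those of U2 and U3 only. U3 held 4 NK cells beside 206 T cells. The tags are samples of unknown arm, so these shares are not a comparison of ACSS2i with vehicle. Shares of tagged cells also depend on how many keratin-positive cells received a tag, since 2329 quality-passing barcodes but no NK or T cell had none.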

How the data were processed

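The deposited matrix holds counts of UMIs for 31053 genes and 6 antibody tags in 9747 barcodes of 1 pool, and the authors' values were used as deposited. Per the submitters' processing notes the tool was Cell Ranger and the build mm10. Per the file headers, software version 3.1.0 wrote the matrix. No source used here names the annotation behind the counts. The pool holds 187339115 gene UMIs, and 9746 barcodes hold a tag UMI. Below 500 genes were 696 barcodes, and 267 more were at or over 15% mitochondrial UMIs.

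The members and the 17 gene lists were chosen with earlier results of these data known. Tags were assigned with HTODemux (Seurat 5.3.0, R 4.3.3, quantile 0.99, seed 42), which gave 5590 quality-passing barcodes 1 tag, 865 more than 1 and 2329 none. No doublet caller was run. UMIs were summed per class and tag and divided by the class total (CPM) in Python 3.11.15 with numpy 2.4.6, pandas 2.3.3 and scipy 1.17.1, and figures were drawn with matplotlib 3.10.9. CPM carries exact Poisson and a ratio exact conditional 95% intervals. PCR copies are removed by UMIs, but intervals and floors cover counting error only and not the spread between tumours. A gene with 0 UMIs in a class was set to 3 UMIs for its bound. Genes with at least 20 UMIs in both classes together, outside the rule, were compared and counted past 2-fold. No test over the tags was made, because the classes were chosen on the counts of the same cells. The calculation was checked on simulated data with counting error only. Of the unchanged genes compared there, 6.38% were called past 2-fold in either direction, and 0.346% of those with 100 or more UMIs. All genes raised or lowered 4-fold were called. Promoter windows come from RefSeq, GRCm38.p6, and were aligned with Biopython 1.88, and all 387 listed genes had a position in GENCODE M21.

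Genes were named by rule, 99 in all: the granzymes, the genes of the NK rule, Acss2, the 4 members with most UMIs of every list, and the 12 genes with the largest and the 12 with the smallest ratio among those with at least 50 UMIs and 1 direction in every tag compared. Values of some genes are not reported here. Other list members and markers named in the text were chosen after their values were seen, among them Acly, Ccl3, Ccl4, Cd244, Cd247, Cdkn1a, Cdkn1b, Ctla4, Ctsw, Cx3cr1, Eomes, Hk2, Ifit1, Ifit3, Ifng, Il10ra, Il12rb2, Itga1, Itga2, Itgae, Kat2b, Kit, Klra1, Klra3, Klra9, Klrg1, Klrk1, Lag3, Lef1, Lyn, Mki67, Nkg7, Oasl2, Pdcd1, Plcg1, Prf1, Runx3, Serpinb6b, Serpinb9, Sh2d1b1, Slamf7, Slc16a3, Slc2a1, Tbx21, Tcf7, Tcrg-C4, Tgfb1, Tigit, Tmem176a, Tmem176b, Usp18 and Zeb2. Alternatives changed the filters, the gates, doublets, the scaling, the depth, the T cells compared and the tags included.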

Additional observations from a re-analysis of the deposited data

Results flagged for a closer look

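Outlying samples were looked for with Dixon's ratio in 54 sets of tagged values, those of the NK share over the 6 tags and those of single genes over the 4 tags with enough NK cells. Chance flags about 1 such set in 20, and 2 were flagged. The NK share of tagged cells was 7.05% in D0, while the other 5 tags lay between 0.651% and 2.55%, a gap of 0.703 of the whole range against a critical value of 0.625. Aldoa, which encodes a glycolytic enzyme, had 525.7 CPM in the NK cells of D0, while the other 3 tags lay between 469 and 479 CPM, a gap of 0.830 of the range against a critical value of 0.829. Dixon's ratio leaves out counting error, and whether the Aldoa gap exceeds it was not tested. The cause of the high NK share in D0 was not tested either.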

How the results depend on the processing

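No paired analysis was possible because the results come from no test, since NK and T cells were told apart by the counts that are compared. The 4 tags give values side by side. The NK share of 1.50% was 2.16% over cells with exactly 1 tag and 1.24% without tag D0. Genes past 2-fold higher in NK cells than in T cells, 361, were 935 with no minimum count and 160 with at least 50 UMIs. Those lower, 1141, were 1773 with no minimum, 563 with at least 50 UMIs, 550 against CD8 T cells and 757 with cells thinned to 1000 UMIs. The genes compared changed too, from 7472 to 10743 with no minimum and 4712 with at least 50 UMIs. They were 5746 against CD8 T cells and 4753 with thinned cells, so the counts have different totals. Against CD8 T cells the 327 higher genes were 872, 110 and 172 with no minimum, at least 50 UMIs and thinned cells, and the 550 lower genes 1402, 192 and 307. Their totals of genes compared also differ. Of 86 genes named by rule compared, 70 kept their call in all 23, and of 50 past 2-fold 42 did. Some of the 23 could hardly change a call. A changed minimum count leaves ratios as they are, the median scaling factor was 1.0003, and the 10% mitochondrial limit kept 132 NK cells. Removing barcodes with more than 1 tag and keeping those with exactly 1 gave the same NK and T cells. Slamf7, Tcrg-C4 and Ifit1 lost their call in both and are counted under both. The 8 exceptions (Gzmb, Gzmk, Klrc1, Ets1, Ccl5, Ltb, Ccr2 and Tnfrsf18) are given above with their values. Of 47 other genes in the text past 2-fold, 25 kept their call and 22 lost it in at least 1 alternative, a count added after the values were seen. Besides those given above with their values, these were Tmem176a (log2 ratio 0.76 to 0.99 in 5 alternatives) and Zeb2 (-0.98 with thinned cells). Tcf7 was reversed, with log2 ratios of 0.086 with a minimum of 1000 genes, 0.60 with equally weighted tags and 0.088 without U3. The cause of these changes was not tested. The 132 NK cells limit the precision of all levels, and genes under 20 UMIs could not be compared.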

Other observations

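Tags U3 and D4 held too few NK cells for the comparisons above. The 4 NK cells of U3 had 6935 CPM of Gzmd, 10255 CPM of Gzmf and 14681 CPM of Gzmc. Their Gzmd and Gzmf UMIs came from 1 cell, and their Gzmc UMIs from 2. The 5 NK cells of D4 had 293 CPM of Gzmd, 937 CPM of Gzmf, 16460 CPM of Gzmc, 7556 CPM of Gzmb and 3397 CPM of Gzma. Their Gzmd and Gzmf UMIs came from 1 cell, and 1 cell held 67 of their 129 Gzmb UMIs. Ifng had 1230 CPM in the NK cells of D4, against 36.9 to 250.2 CPM in those of the other 5 tags, and 20 of the 21 UMIs of D4 came from 1 cell.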
